A study of Sorghum bicolor with 64 samples.

Results

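Sucrose leaves source cells and enters sink cells through carriers, and 4 carrier genes of sorghum are described here. They are the 3 SUT genes measured in both organs, Sobic.001G488700 (*SbSUT1*), Sobic.004G353600 and Sobic.008G193300, and Sobic.004G099300. The gene descriptions name the last monosaccharide-sensing protein 2, a transporter of the tonoplast, the membrane around the vacuole. The 4 genes were picked by gene identifier, and all 4 are present in both tables, of 16942 genes measured in stems and 16386 in leaves. Transcript levels are in TPM, which adjust read counts for transcript length and scale each library to a common total. The plants were field-grown near-isogenic lines in the Tx623 background that differ at the *D* locus: *dd* plants have the recessive allele of the NAC transcription factor gene *SbNAC074A*, whose product is shortened, and *DD* plants have the functional one. Heads were cut off at anthesis (head removal) or left on (control), and tissue was taken 10 or 3 d later, which makes 8 groups in each organ. The stem samples were the inner part of the fourth internode from the top, after the outer layer had been shaved away, and the leaf samples were the middle of the second leaf without counting the flag leaf. Stems had 29 samples, with 3 or 4 per group, and leaves had 24, with 3 per group; 3 further stem and 8 further leaf samples named in the labels were not analysed here. The labels call the samples biological replicates, and whether a stem and a leaf sample came from the same plant is not stated in the sources used here. Day covers both the time since head removal and the time since anthesis, since the controls were sampled on the same days.

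SUT proteins are proton-coupled sucrose symporters of the plasma membrane and, for some members, of the tonoplast. They load sucrose into the phloem of source leaves and retrieve it along the path through the stem. The tonoplast sugar transporters, which Arabidopsis annotation calls monosaccharide-sensing proteins, exchange protons for sugar and fill the vacuole with hexoses or, as in the sugar beet taproot, with sucrose. Both kinds depend on proton pumps: the plasma membrane proton ATPase energizes sucrose uptake from the apoplast, and the V-type proton ATPase and the vacuolar pyrophosphatase energize the tonoplast. SWEET proteins let sugars pass without a proton. Sorghum stems store sucrose in the parenchyma of the pith.

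The library totals lay between 994406 and 996581 TPM in stems and between 994771 and 995806 TPM in leaves, and since such values keep no depth, which is unknown here, replicate spread is the only measure of their precision. As a check of the labels, transcripts of *SbXCP1* (Sobic.007G172100), a vascular cysteine protease gene, reached at most 0.355 TPM in the 15 *dd* stems, against 0.0744 to 84.1 TPM in the 14 *DD* stems. Replicates 1 and 2 of *DD* head removal at 10 d, with 0.148 and 0.0744 TPM, lay within the *dd* range, so this gene does not check their labels. *SbNAC074A* itself (Sobic.006G147400) was read in stems of both genotypes, with 0.361 to 53.9 TPM in *dd* and 0.387 to 32.1 TPM in *DD*, so its level does not tell the genotypes apart. In leaves *SbXCP1* overlapped as well, with 0.19 to 34.7 TPM in *dd* and 0.0893 to 41.3 TPM in *DD*, and *SbNAC074A* was not in the table, so the leaf labels were not checked this way. On the first principal component of the 500 most variable stem genes, the head removal stems lay between -31.0 and 10.3. Replicates 3 and 4 of *dd* control at 10 d lay within this range, at -9.52 and -9.15, the lowest values of all control stems. Replicates 1 and 2 of *dd* control and replicate 2 of *DD* control, all at 3 d, also lay within it, at higher values. The other *dd* controls at 10 d lay at 23.0 and 25.0. On the first component of the leaves, replicates 2 and 3 of *DD* head removal at 3 d had the lowest values, -33.0 and -45.1. On the other side, replicate 2 of *DD* control at 3 d lay at 34.8. Calls of the 4 genes that changed without both named *dd* control stems at 10 d, or without both named *DD* head removal leaves, are given both ways.

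The 4 genes were expressed at very different levels, and their order was not the same in the organs. In stems the monosaccharide-sensing protein 2 gene Sobic.004G099300 averaged 284 ± 108 TPM and *SbSUT1* 258 ± 121 TPM, followed by Sobic.008G193300 at 99.5 ± 17.8 TPM and Sobic.004G353600 at 36.9 ± 13.8 TPM (SD over 29 samples). *SbSUT1*, from 70.8 to 522 TPM, overlapped both of its neighbours in this order, while the highest value of Sobic.004G353600, 70.3 TPM, lay just under the lowest of Sobic.008G193300, 70.9 TPM. In leaves *SbSUT1* averaged 415 ± 112 TPM, far above Sobic.004G099300 at 45.1 ± 21.2 TPM and Sobic.008G193300 at 43.3 ± 9.06 TPM, which overlap, and Sobic.004G353600 at 8.27 ± 1.46 TPM (SD over 24 samples). *SbSUT1* ranked 680th from the top of the stem table and 325th from the top of the leaf table by mean TPM. Stem and leaf tables were made separately, so these levels stand side by side without a test.

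Differences were tested with limma on log2(TPM + 1), 1 fit for stems and 1 for leaves, each with additive terms for treatment, genotype and day; a gene passed where its Benjamini-Hochberg adjusted p over all genes of the table was under 0.01. All differences are on this scale, which understates changes of low genes, and in whole organs fewer cells of a type and less RNA per cell cannot be told apart. By head removal 0 of the 4 members passed in stems, where 37.8% of all genes did, and 0 of 4 in leaves, where 11.4% did; at an unadjusted p under 0.05 the counts were 1 and 2. By genotype 3 of 4 passed in stems (background 17.8%) and 0 of 4 in leaves (background 5.44%, 2 at an unadjusted p under 0.05). By day 3 of 4 passed in stems (background 32.5%) and 2 of 4 in leaves (background 21.5%). All 8 additive effects that passed were below 1 in size. Where groups are said below to overlap or not, the share of all genes that did the same was not counted.

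**Figure D1:**
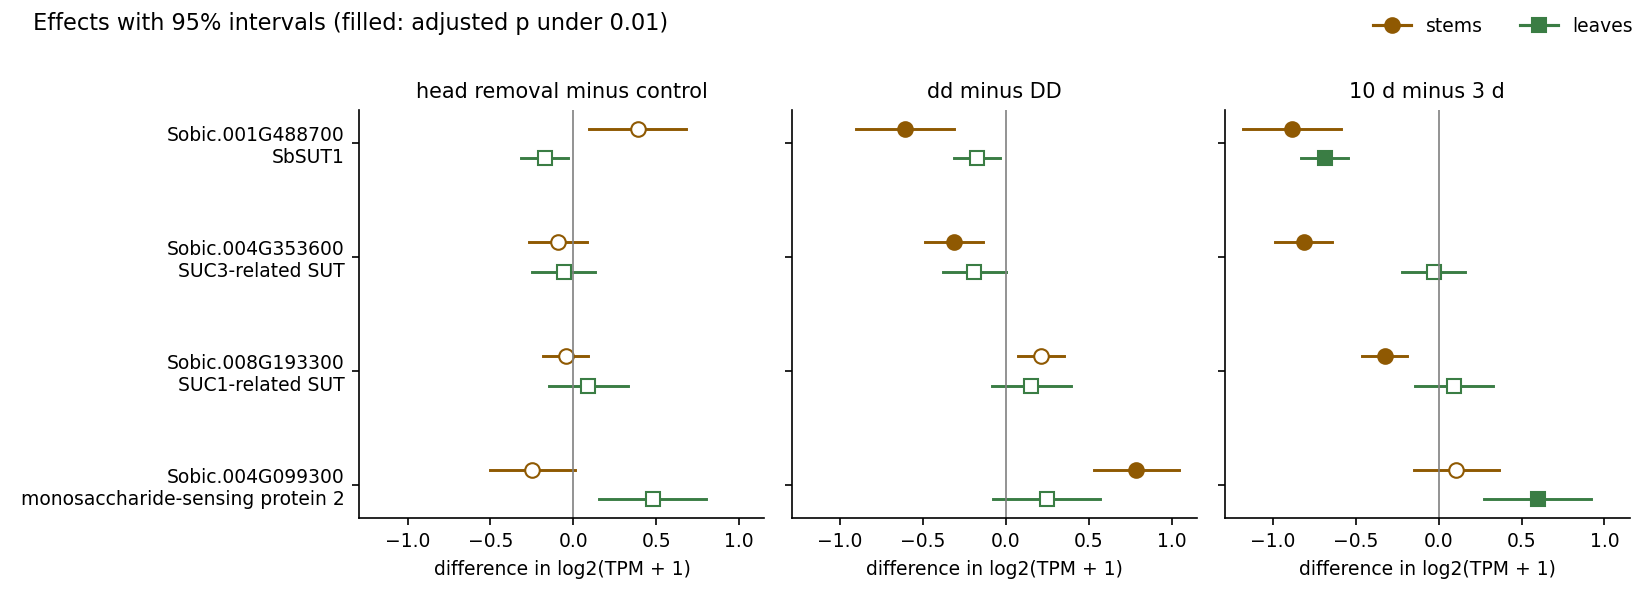
Differences in log2(TPM + 1) by head removal (left), genotype (middle) and day (right) for the 4 genes, with stems as circles above leaves as squares, 95% intervals as lines and filled symbols where the adjusted p was under 0.01. The day panel holds the longest shifts to the left, -0.89 and -0.69 for *SbSUT1* in stems and leaves and -0.81 for Sobic.004G353600 in stems, and the genotype panel the longest to the right, 0.79 for Sobic.004G099300 in stems.

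*SbSUT1*, whose product belongs to the proton-sucrose symporters, was lower at 10 d than at 3 d and lower in *dd* than in *DD* stems. At 10 d it had 116, 163, 163 and 177 TPM in *dd* head removal stems, against 180.2, 187, 70.8 and 80.3 TPM in *dd* control stems. In *DD* plants at 10 d it had 299, 143 and 374 TPM in *DD* head removal stems, against 181, 209 and 170.5 TPM in *DD* control stems. The head removal stems of *DD* were thus widely spread at 10 d, and 2 of the 4 *dd* controls, replicates 3 and 4, had the lowest values of all stems. At 3 d it had 212, 279.7 and 323 TPM in *dd* head removal stems, against 329, 268, 204 and 213 TPM in *dd* control stems. In *DD* plants at 3 d it had 522, 356, 513 and 518 TPM in *DD* head removal stems, against 291, 346, 282 and 306 TPM in *DD* control stems. Here all 4 head removal stems lay above all 4 controls, the only one of the 4 combinations of genotype and day in which the treatments did not overlap, although the mean was higher after head removal in all 4.

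By day the *SbSUT1* stem level averaged 179.6 ± 78.9 TPM at 10 d (n = 14) and 331 ± 107 TPM at 3 d (n = 15), a difference of -0.89 ± 0.14 (SE, as for all differences) in log2(TPM + 1), or 0.541-fold, with an adjusted p of 2.03e-05 by limma. Every 10 d stem lay below every 3 d stem in 3 of the 4 combinations of genotype and treatment, all but *DD* head removal. By genotype the level averaged 198 ± 77.9 TPM in *dd* (n = 15) and 322 ± 127 TPM in *DD* (n = 14), a difference of -0.61 ± 0.14 with an adjusted limma p of 0.00252. The mean was lower in *dd* in all 4 combinations of treatment and day, but only 1 was free of overlap, head removal at 3 d. Tested within each combination, the genotype difference passed in none. It ranged from -0.29 in controls at 3 d (adjusted limma p 0.631) to -0.82 after head removal at 3 d (adjusted limma p 0.0711). Without replicates 3 and 4 of *dd* control at 10 d, the day difference was -0.76 and the genotype difference -0.51, and both passed. The treatment difference was 0.39 ± 0.14 with a 95% interval of 0.10 to 0.68, and its adjusted limma p of 0.0243 did not pass. It was 0.27 without those 2 controls (adjusted p by limma 0.0837). It passed at 0.45 (adjusted p by limma 0.00787) without replicate 2 of *DD* head removal at 10 d, one of the stems whose label *SbXCP1* does not check. After median-of-ratios scaling it also passed, at 0.45 (adjusted p by limma 0.00822). That scaling rescales each library by the median ratio of its genes to the average library. The paper's own DESeq2 fit, with terms for treatment, genotype and day, gave a positive stem effect of head removal with an adjusted p under 0.01.

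**Figure D2:**
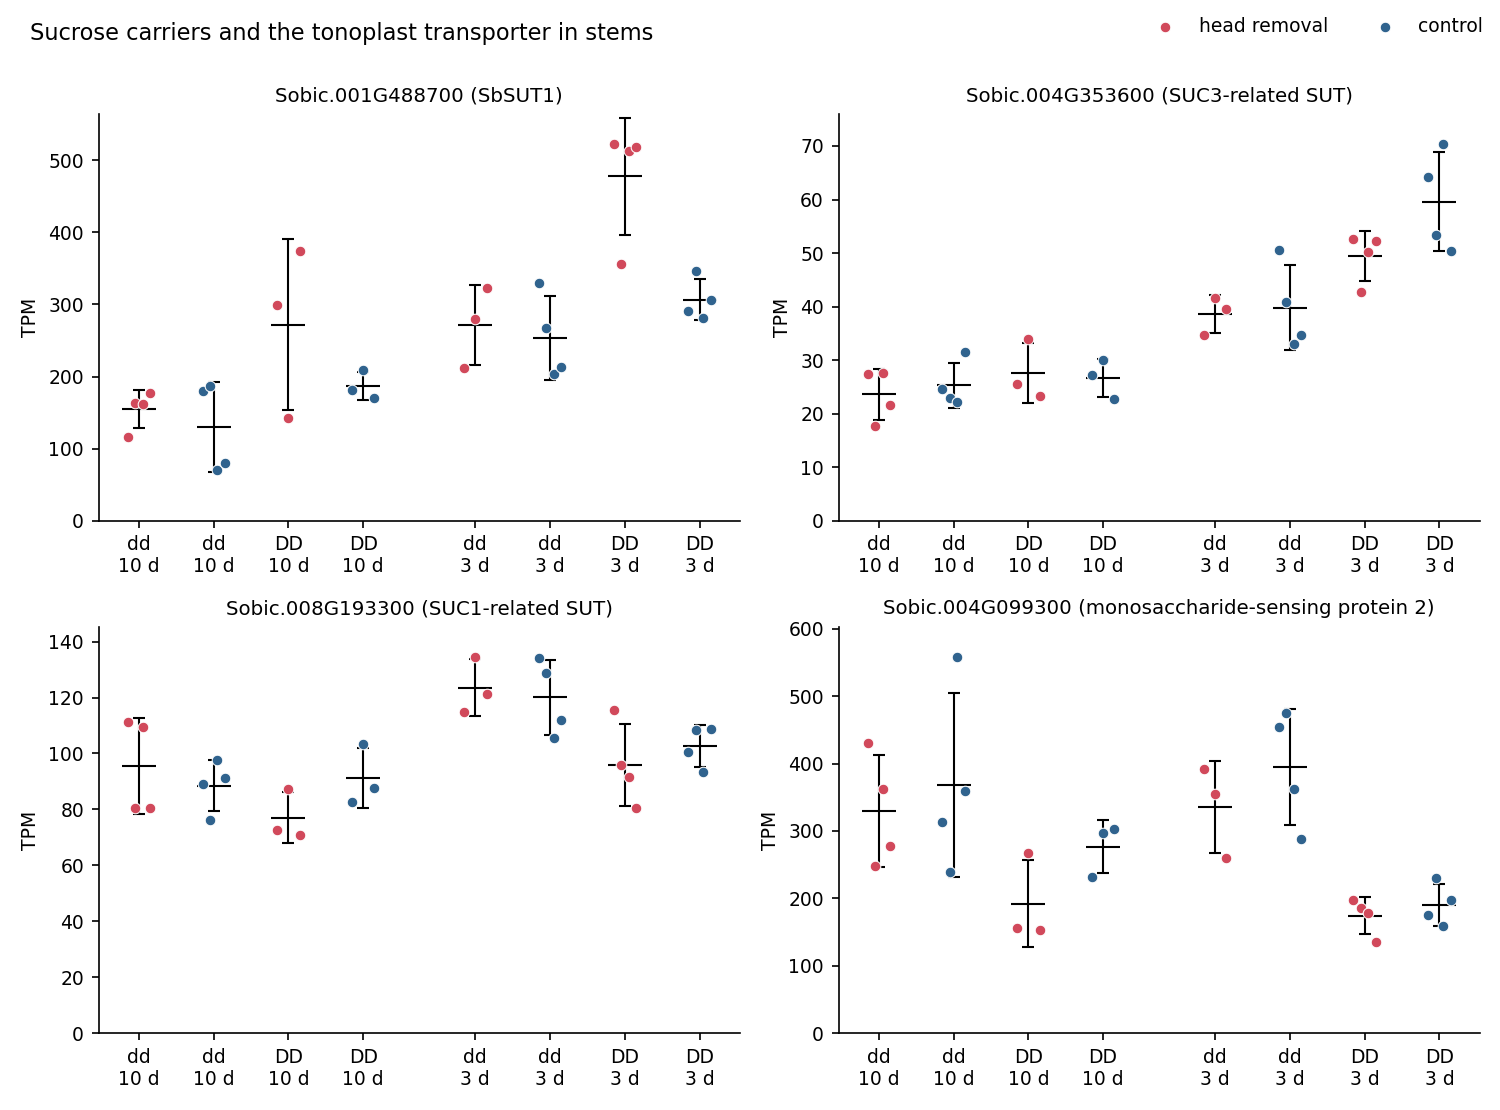
TPM of the 4 genes in each stem sample (points) by genotype and day, with head removal in red left of control in blue and black bars for the mean ± SD of 3 or 4 samples. *SbSUT1* and Sobic.004G353600 stand lower in the 10 d groups on the left of each panel than in the 3 d groups on the right, and Sobic.004G099300 stands higher in *dd* than in *DD*.

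In leaves *SbSUT1* was lower at 10 d than at 3 d. At 10 d it had 339, 253 and 246 TPM in *dd* head removal leaves, against 330.3, 309 and 297 TPM in *dd* control leaves. In *DD* leaves at 10 d it had 365, 303 and 296 TPM after head removal, against 402, 337 and 339 TPM in controls. All 12 leaves lay between 246 and 402 TPM. At 3 d it had 481, 369 and 486 TPM in *dd* head removal leaves, against 565, 580.4 and 449 TPM in *dd* control leaves. In *DD* leaves at 3 d it had 508, 478 and 566 TPM after head removal, against 557, 545 and 559.9 TPM in controls. In all 4 combinations every 10 d leaf lay below every 3 d leaf, with means of 318 ± 44.04 TPM at 10 d and 512 ± 62.6 TPM at 3 d (SD, n = 12 each). The difference was -0.69 ± 0.07, or 0.621-fold (adjusted p 4.90e-06 by limma), and it ranged from -0.72 to -0.67 when each leaf sample was left out in turn. Head removal leaves averaged 391 ± 108 TPM and control leaves 439 ± 115 TPM (n = 12 each), a difference of -0.17 ± 0.07 that did not pass (adjusted p by limma 0.0585), and the genotype difference of -0.18 ± 0.07 did not pass either (adjusted p by limma 0.0838).

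**Figure D3:**
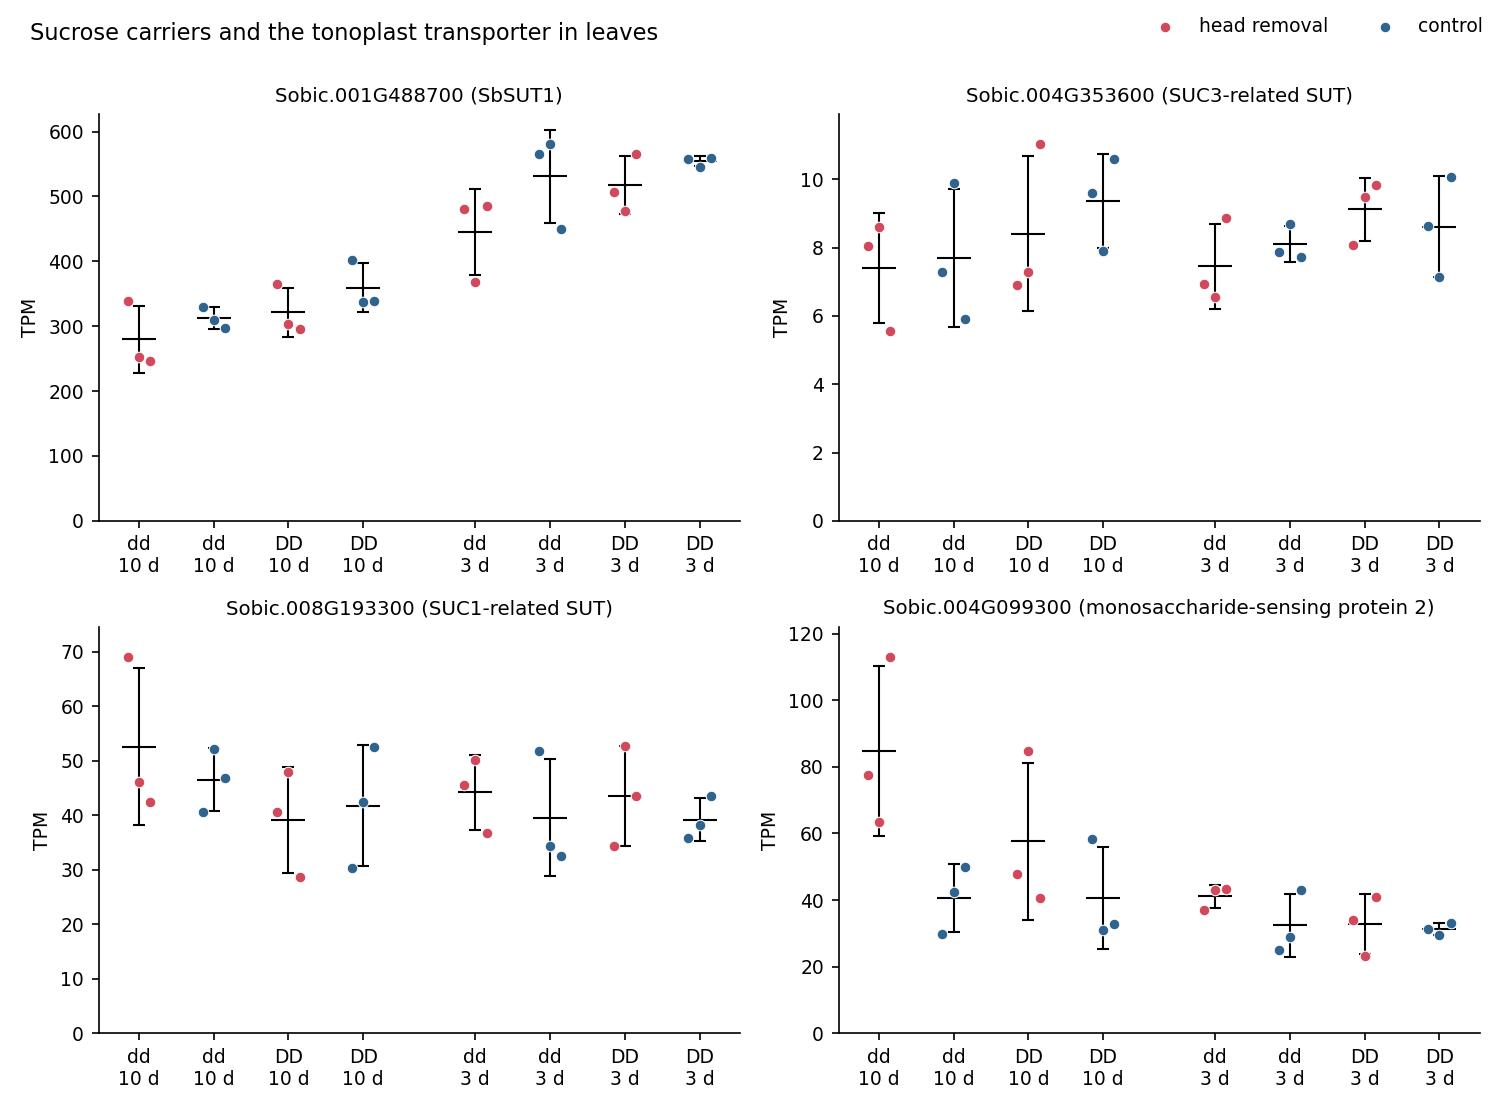
TPM of the 4 genes in each leaf sample (points) by genotype and day, with head removal in red left of control in blue and black bars for the mean ± SD of 3 samples. All *SbSUT1* points at 10 d lie between 246 and 402 TPM, against 369 to 580 TPM at 3 d, and the highest points of Sobic.004G099300 are head removal leaves at 10 d.

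Sobic.004G353600, described in the tables as a relative of the Arabidopsis sucrose carrier SUC3, was lower at 10 d than at 3 d in stems, and its day difference in leaves did not pass. At 10 d its stem level was 27.4, 17.6, 27.7 and 21.7 TPM in *dd* head removal and 24.6, 22.9, 22.1 and 31.5 TPM in *dd* control plants. In *DD* stems at 10 d it was 25.5, 34.01 and 23.3 TPM after head removal and 27.1, 29.98 and 22.8 TPM in controls. The 14 stems of 10 d were close together, between 17.6 and 34.0 TPM. At 3 d it was 34.7, 41.7 and 39.5 TPM in *dd* head removal and 50.6, 40.9, 33.01 and 34.6 TPM in *dd* control stems. In *DD* stems at 3 d it was 52.7, 42.8, 50.2 and 52.2 TPM after head removal and 64.1, 53.4, 70.3 and 50.4 TPM in controls. The days did not overlap in any of the 4 combinations. The means were 25.6 ± 4.35 TPM at 10 d (n = 14) and 47.4 ± 10.7 TPM at 3 d (n = 15), a difference of -0.81 ± 0.08, or 0.569-fold (adjusted p 4.75e-08 by limma).

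Tested within each combination, the day difference of Sobic.004G353600 in stems was -0.71 in *dd* head removal (adjusted limma p 0.00609, background 7.17% of genes), -0.63 in *dd* control (adjusted limma p 0.0107, background 4.69%), -0.83 in *DD* head removal (adjusted limma p 0.00226, background 7.5%) and -1.13 in *DD* control (adjusted limma p 0.000548, background 3.15%). It thus passed in 3 of the 4, and the other 3 members passed in none of them. By genotype Sobic.004G353600 averaged 31.4 ± 9.15 TPM in *dd* stems (n = 15) and 42.8 ± 15.7 TPM in *DD* stems (n = 14). This difference of -0.32 ± 0.08 had an adjusted limma p of 0.00629, close to the threshold. It no longer passed after median-of-ratios scaling (-0.25, adjusted limma p 0.0164) or without any 1 of 11 of the 29 stems, where it lay between -0.31 and -0.28. At 3 d these were replicates 1 and 3 of *DD* control, replicates 2, 3 and 4 of *dd* control, and after head removal replicate 4 of *DD* and replicate 1 of *dd*. At 10 d they were replicate 2 of *DD* control, replicate 3 of *dd* control, and replicate 2 of each genotype after head removal. Head removal stems averaged 35.1 ± 11.7 TPM (n = 14) and control stems 38.6 ± 15.7 TPM (n = 15), a difference of -0.09 ± 0.08 with a 95% interval of -0.27 to 0.08 that did not pass (adjusted limma p 0.373). In leaves the gene was low in every sample, from 5.57 to 11.03 TPM, and its day difference was -0.03 with a 95% interval of -0.22 to 0.16.

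Sobic.008G193300, described as related to the Arabidopsis sucrose carrier SUC1, was the steadiest of the 4 in stems, ranging from 70.9 to 135 TPM over the 29 samples. It averaged 88.6 ± 12.9 TPM at 10 d (n = 14) and 109.7 ± 15.8 TPM at 3 d (n = 15), a difference of -0.32 ± 0.07, or 0.799-fold (adjusted p 0.000308 by limma), with 2 of the 4 combinations free of overlap. Unlike the other SUT genes its point estimate by genotype was positive: *dd* stems averaged 105.8 ± 19.4 TPM (n = 15) and *DD* stems 92.8 ± 13.6 TPM (n = 14). This difference of 0.21 ± 0.07 did not pass as fitted (adjusted p by limma 0.0172). It passed after median-of-ratios scaling, at 0.28 (adjusted p by limma 0.00221), and without replicate 2 of *DD* control at 10 d, at 0.24, or replicate 2 of *dd* control at 10 d, at 0.23. Head removal stems averaged 97.7 ± 20.03 TPM (n = 14) and control stems 101.3 ± 15.96 TPM (n = 15). In leaves it ranged from 28.6 to 69.1 TPM, and its 3 differences, 0.09 by head removal, 0.15 by genotype and 0.09 by day, did not pass (adjusted p by limma 0.577, 0.402 and 0.551).

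Only the 3 measured SUT genes are counted here, and any SUT gene that was not listed is left out. *SbSUT1* made up most of the transcripts of these 3 genes in both organs, and more of them in leaves. In leaves it held 88.3 ± 3.64% of the summed TPM of the 3 SUT genes (SD, n = 24), Sobic.008G193300 held 9.88 ± 3.36% and Sobic.004G353600 1.86 ± 0.53%. In stems the same shares were 62.7 ± 10.3%, 27.7 ± 9.07% and 9.55 ± 2.50% (SD, n = 29). The stem share of *SbSUT1* ranged from 50.9 ± 14.6% in *dd* control at 10 d (n = 4) to 76.4 ± 3.37% in *DD* head removal at 3 d (n = 4). Replicate 3 of that *dd* control group had the lowest *SbSUT1* share of all stems, 37.1%. The summed SUT level was 623 ± 87.0 TPM in *DD* head removal stems at 3 d, against 469 ± 27.5 TPM in *DD* control stems at 3 d. In *dd* stems at 3 d it was 434 ± 64.2 TPM after head removal, against 413 ± 78.9 TPM in controls. At 10 d it was 377 ± 104 TPM in *DD* head removal and 305 ± 32.8 TPM in *DD* control stems, and 274 ± 20.1 TPM in *dd* head removal and 243 ± 54.1 TPM in *dd* control stems. The sum was thus higher after head removal in all 4 pairs of means, with the widest gap in *DD* at 3 d. These shares and sums were not tested.

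**Figure D4:**
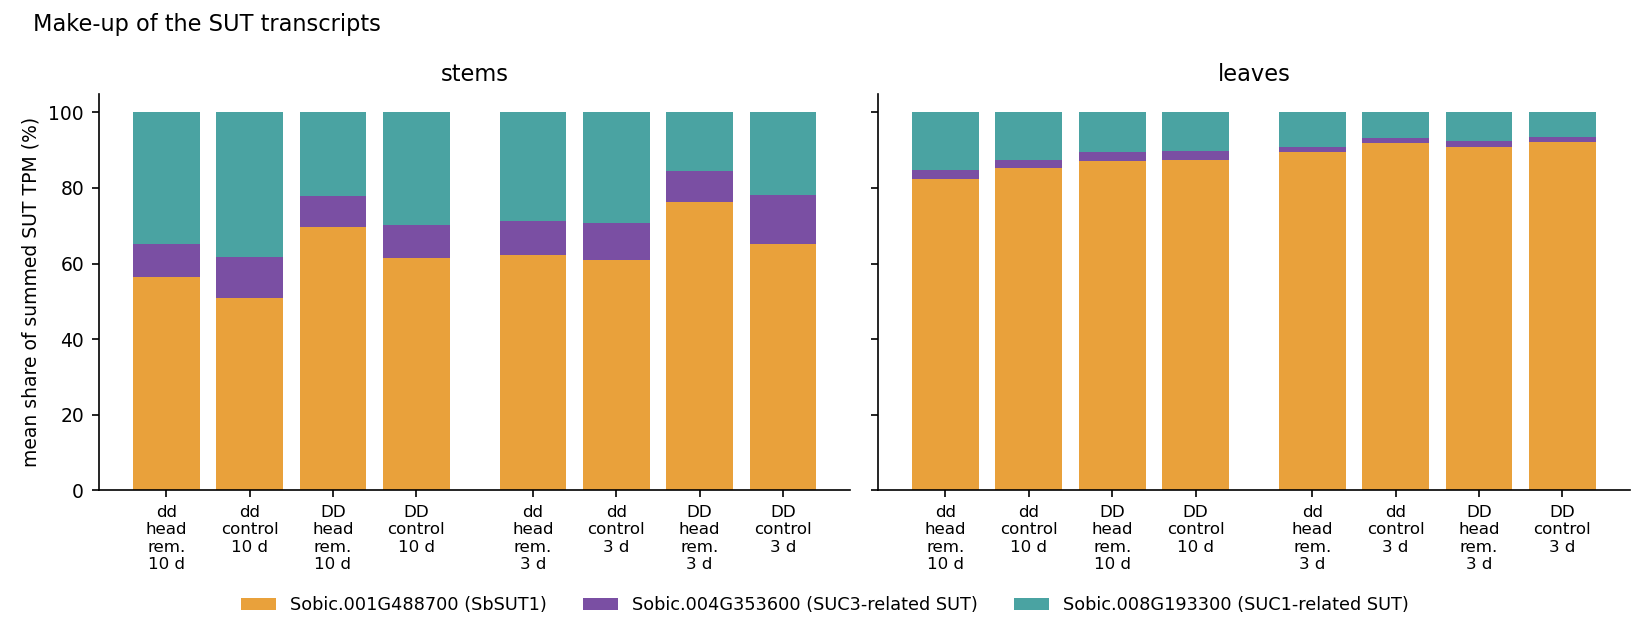
Mean share of each SUT gene in the summed TPM of the 3 SUT genes (%) in each stem group (left panel) and leaf group (right panel), with *SbSUT1* at the bottom, Sobic.004G353600 above it and Sobic.008G193300 on top. *SbSUT1* holds 50.9 to 76.4% in stem groups and 82.5 to 92.1% in leaf groups.

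Sobic.004G099300, the tonoplast transporter, was higher in *dd* than in *DD* stems. At 10 d it had 431, 248, 362 and 278 TPM in *dd* head removal stems, against 313, 239.5, 559 and 360.0 TPM in *dd* control stems. In *DD* stems at 10 d it had 157, 267 and 153 TPM after head removal, against 231, 296 and 302 TPM in controls. Replicate 3 of *dd* control, one of the samples set apart on the first component, had the highest value of all stems. At 3 d it had 391, 356 and 260.3 TPM in *dd* head removal stems, against 454, 475, 362 and 289 TPM in *dd* control stems. In *DD* stems at 3 d it had 197, 186, 178 and 135 TPM after head removal, against 175, 231, 159.6 and 198 TPM in controls. At 3 d every *dd* stem lay above every *DD* stem of the same treatment, and at 10 d the genotypes overlapped under both treatments. The means were 359 ± 92.0 TPM in *dd* (n = 15) and 205 ± 53.4 TPM in *DD* (n = 14), a difference of 0.79 ± 0.12, or 1.72-fold (adjusted p 8.33e-05 by limma). It was 0.75 without the 2 *dd* controls that stood apart and lay between 0.75 and 0.83 when each stem was left out in turn. Head removal stems averaged 257 ± 96.2 TPM (n = 14) and control stems 309.6 ± 115 TPM (n = 15), and this difference of -0.25 ± 0.12 did not pass (adjusted p by limma 0.0974). Nor did the day difference of 0.11 ± 0.12 (adjusted p by limma 0.498).

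In leaves the same gene was higher at 10 d than at 3 d, with its highest values after head removal. At 10 d it had 77.6, 63.4 and 113 TPM in *dd* head removal leaves, against 29.7, 42.5 and 49.9 TPM in *dd* control leaves. In *DD* leaves at 10 d it had 47.7, 84.6 and 40.5 TPM after head removal, against 58.3, 30.8 and 32.8 TPM in controls. The *dd* treatments did not overlap here, and those of *DD* did. At 3 d it had 37.1, 42.9 and 43.4 TPM in *dd* head removal leaves, against 24.99, 28.97 and 43.1 TPM in *dd* control leaves. In *DD* leaves at 3 d it had 34.1, 23.1 and 40.97 TPM after head removal, against 31.2, 29.4 and 33.02 TPM in controls. All 12 leaves of 3 d lay between 23.1 and 43.4 TPM. By day the means were 55.9 ± 25.2 TPM at 10 d and 34.4 ± 7.14 TPM at 3 d (n = 12 each), a difference of 0.60 ± 0.16, or 1.51-fold (adjusted p 0.0048 by limma), beside a median of 0.09 over all leaf genes that scaling moved to -0.01. The call was lost after median-of-ratios scaling (0.49, adjusted p by limma 0.0162) and without replicates 2 and 3 of *DD* head removal at 3 d (0.51, adjusted p by limma 0.0167). Head removal leaves averaged 54.0 ± 25.8 TPM and control leaves 36.2 ± 10.0 TPM (n = 12 each), and the difference of 0.48 ± 0.16, with a 95% interval of 0.16 to 0.80, did not pass (adjusted p by limma 0.0261). The estimates by head removal within *dd* leaves were 1.03 at 10 d (adjusted p by limma 0.0844) and 0.37 at 3 d, and within *DD* leaves 0.48 at 10 d and 0.03 at 3 d. By day they were 0.99 in *dd* and 0.76 in *DD* head removal leaves, against 0.33 in *dd* and 0.31 in *DD* control leaves, and none of these 8 estimates passed.

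The other tonoplast sugar transporter in the tables, the monosaccharide-sensing protein 1 gene Sobic.001G312900, was the more abundant of the pair in stems, with 450.0 ± 97.8 TPM (SD, n = 29). It was also higher in *dd* stems, with 498 ± 96.5 TPM in *dd* and 398 ± 71.3 TPM in *DD*, a difference of 0.33 ± 0.08 (adjusted p 0.00415 by limma). The mean was higher in *dd* in all 4 combinations of treatment and day, 2 of which overlapped, and the difference was only 0.07 in controls at 10 d. Sobic.001G312900 was lower after head removal, at 404 ± 102 TPM, against 493 ± 73.5 TPM in control stems, a difference of -0.29 ± 0.08 (adjusted p 0.00424 by limma). The mean was lower in all 4 combinations of genotype and day, 3 of which overlapped, and the difference was only -0.02 in *dd* stems at 3 d. Without replicates 3 and 4 of *dd* control at 10 d, only Sobic.004G099300 of the pair passed by genotype, and neither passed by head removal, nor did either by head removal after median-of-ratios scaling. In leaves this gene averaged 34.9 ± 6.96 TPM (n = 24), and none of its 3 effects passed (adjusted p by limma 0.101 by head removal, 0.554 by genotype and 0.943 by day).

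No interaction of 2 factors passed for a member in limma's model with 8 group means, in either organ, and none had an unadjusted p under 0.05. Few genes of either table passed: in stems 0% by treatment and genotype, 0.0472% by treatment and day and 0.0059% by genotype and day, and in leaves 0% in each of the 3. The lowest adjusted p of a member was 0.519 in stems and 0.608 in leaves, the leaf value being for treatment and day in Sobic.004G099300. Its estimate there was 0.55, with a wide 95% interval of -0.07 to 1.17, so with 3 leaves per group this interaction was estimated imprecisely.

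The effects of the organs were compared as the difference of the 2 estimates over their joint standard error, over 14496 genes present in both tables. By head removal the difference passed for 2 of the 4 members, with 20.7% of all genes passing. *SbSUT1* had 0.39 in stems and -0.17 in leaves, a difference between the estimates of 0.56 ± 0.16 (adjusted p 0.00561 on the limma estimates), and Sobic.004G099300 had -0.25 in stems and 0.48 in leaves, a difference of -0.73 ± 0.20 (adjusted p 0.00411 on the limma estimates). For neither gene did the effect in a single organ pass. Without stem *dd* control 10 d replicates 3 and 4 the *SbSUT1* difference was 0.44 and did not pass (adjusted p 0.0174 on the limma estimates). By day the difference passed for Sobic.004G353600, -0.78 ± 0.12 (adjusted p 7.39e-06 on the limma estimates, background 27.2%), and not for Sobic.008G193300, -0.42 ± 0.13 (adjusted p 0.0113 on the limma estimates). Sobic.008G193300 passed without any 1 of 11 samples, where it lay between -0.47 and -0.43. The stems were, at 10 d, replicates 1 and 3 of *dd* head removal and replicate 2 of *DD* head removal and *DD* control, and at 3 d replicate 4 of *DD* head removal and replicate 3 of *dd* control and *DD* control. The leaves were, at 10 d, replicate 4 of *DD* head removal and replicate 1 of *DD* control, and at 3 d replicate 3 of *DD* head removal and replicate 1 of *dd* control. By genotype 0 of 4 passed (background 9.13%), with -0.43 for *SbSUT1* and 0.54 for Sobic.004G099300 (adjusted p 0.0474 and 0.0465 on the limma estimates, and unadjusted p under 0.05 for both). The comparison treats the organs as independent samples.

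Sugar carriers and proton pumps around the 4 members were taken from lists of gene descriptions. Their counts stand beside the shares of all genes that passed in each direction. In stems 14.4% of all genes rose and 23.5% fell by head removal, 5.17% rose and 12.7% fell in *dd*, and 8.84% rose and 23.7% fell by day. In leaves 4.32% rose and 7.05% fell by head removal, 4.7% rose and 0.738% fell in *dd*, and 17.8% rose and 3.69% fell by day. After median-of-ratios scaling, 3078 of 16942 stem genes rose and 2985 fell by head removal. In *dd* stems 1499 then rose and 1271 fell, and by day 2495 rose and 2380 fell. Of 16386 leaf genes after scaling, 1058 rose and 1109 fell by head removal. By genotype 368 leaf genes then rose and 185 fell, and by day 1648 rose and 1417 fell. For the fits without the samples that stood apart, the shares of all genes by direction are not given. List counts from those fits therefore lack that background. Of 22 V-type proton ATPase subunit genes measured in stems, 16 rose and 0 fell in *dd*, far above the share of all genes, with a list median of 0.22 beside -0.06 over all genes. Subunit G Sobic.002G073800 (0.54 ± 0.09, adjusted p 9.16e-05 by limma) and subunit A Sobic.004G060100 (0.47 ± 0.09, adjusted p 0.000282 by limma) had the largest changes. After median-of-ratios scaling 19 rose, and without the 2 *dd* controls that stood apart 14 rose (list median 0.22 beside -0.06 over all genes). By head removal 4 of 22 rose and 0 fell in stems, near the share of all genes that rose, and by day 1 rose and 9 fell. After scaling these were 8 that rose by head removal, and 1 that rose and 1 that fell by day. In leaves 3 of 23 rose by head removal, 0 passed by genotype (2 at an unadjusted p under 0.05), and 6 rose and 0 fell by day, led by subunit G Sobic.006G203900 (0.52 ± 0.09) and subunit A Sobic.010G218400 (0.38 ± 0.07). After scaling 3 rose by day in leaves. The summed level of the subunits was 8888 to 9918 TPM in *dd* head removal stems at 3 d, against 6958 to 8625 TPM in *dd* control stems at 3 d, and no library of the other stem groups exceeded 8075 TPM.

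The 6 genes listed as plasma membrane proton ATPases or vacuolar pyrophosphatase are few, so that 1 or 2 calls are a large share of them. By genotype in stems 0 rose and 2 fell, and the ATPase Sobic.006G247100 fell most (-0.55 ± 0.10, adjusted p 0.000326 by limma). By day 3 of 6 fell in stems, among them Sobic.001G132400 (-0.41 ± 0.11), and 1 of 6 fell in leaves, Sobic.008G190500 (-0.60 ± 0.14). By head removal 2 of 6 fell in stems, not far from the share of all genes. After median-of-ratios scaling 1 fell by day in stems and 2 in leaves.

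Of 14 SWEET genes in stems, 5 fell and 0 rose in *dd*, 2 rose and 2 fell by head removal, and 1 rose and 3 fell by day. The counts by head removal and day were near or below the shares of all genes. Sobic.003G377700 rose most by head removal (1.51 ± 0.20, adjusted p 6.01e-07 by limma), and Sobic.004G133500, described as SWEET6-related, fell most in *dd* (-1.47 ± 0.38, adjusted p 0.00496 by limma). Without the 2 *dd* controls that stood apart 2 SWEET genes fell by genotype, and 3 fell after median-of-ratios scaling, which left 1 that rose and 1 that fell by day. In leaves 0 of 12 passed by head removal (5 at an unadjusted p under 0.05), 2 fell in *dd*, and by day 1 rose, Sobic.009G080900 (0.89 ± 0.17), and 2 fell, among them Sobic.008G094400 (-0.73 ± 0.12). After scaling 1 rose and 4 fell by day in leaves. With replicates 2 and 3 of *DD* head removal at 3 d left out, 0 SWEET genes passed by genotype in leaves. Of 18 further monosaccharide and polyol carriers in stems 7 fell and 0 rose by day, 2 rose and 4 fell by head removal, and 0 passed by genotype (7 at an unadjusted p under 0.05). The counts by head removal were near the shares of all genes. Sobic.001G469600, an abundant sugar transporter with 405 TPM in stems, fell by head removal there (-0.78 ± 0.13) and by day in leaves (-0.88 ± 0.15), and Sobic.009G235900 fell by day in stems (-0.74 ± 0.09). Of 21 such genes in leaves, 1 rose by head removal, Sobic.008G015800 (0.66 ± 0.12), 1 was lower in *dd*, and by day 2 went up and 2 down. After scaling 3 carriers fell by day and 4 rose by genotype in stems, and in leaves 2 rose by head removal and 2 fell by genotype.

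**Figure D5:**
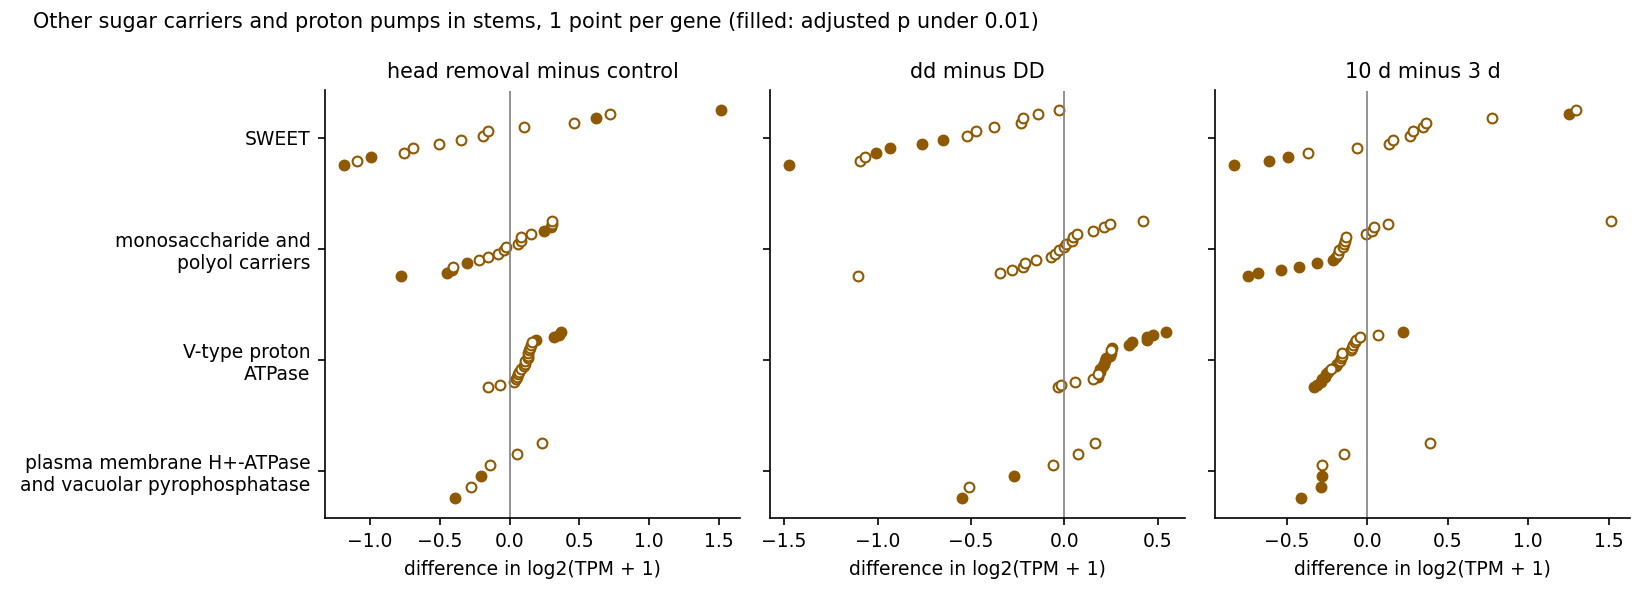
Differences in log2(TPM + 1) in stems by head removal (left), genotype (middle) and day (right) for the other sugar carriers and the proton pumps, with 1 point per gene, filled where the adjusted p was under 0.01; the height within a list orders the genes by their difference. In the genotype panel 16 of 22 V-type proton ATPase genes are filled and to the right of 0, and 5 of 14 SWEET genes are filled and to the left.

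Photosynthesis genes and phloem genes, listed as markers of leaf and phloem tissue, also changed in stems. The paper itself reports a minor rise of photosynthesis pathways in stems after head removal. Of 19 photosynthesis genes used as leaf markers, 13 rose and 0 fell by head removal, and 0 rose and 12 fell by day, led by the chlorophyll-binding protein genes Sobic.003G209800 (-2.75 ± 0.39) and Sobic.003G209900 (-1.63 ± 0.30), while 1 rose by genotype. The counts by head removal and day were far above the shares of all stem genes. None was at 0 in all stems. Their summed level in *dd* stems was 4672 to 7146 TPM after head removal and 2322 to 4632 TPM in controls at 10 d, and 7942 to 10107 TPM after head removal and 3629 to 5211 TPM in controls at 3 d. In *DD* stems it was 3619 to 8373 TPM after head removal and 1832 to 3744 TPM in controls at 10 d, and 5390 to 9357 TPM after head removal and 4109 to 8084 TPM in controls at 3 d. The treatments overlapped in *DD* stems at both days and did not overlap in *dd* stems. In the leaves the same genes summed to 11477 to 37799 TPM, and by day 0 rose and 1 fell, the Rubisco small subunit gene Sobic.005G042000 (-0.51 ± 0.10). After scaling 4 fell by day in leaves, and 3 without replicates 2 and 3 of *DD* head removal at 3 d. Of 7 genes with a phloem protein 2 domain, 0 passed by genotype (2 at an unadjusted p under 0.05), 2 rose and 1 fell by head removal, and 2 rose and 2 fell by day in stems, where Sobic.003G062500 (1.19 ± 0.31) and Sobic.002G270200 (0.62 ± 0.13) rose. These 3 calls by head removal and 4 by day compare with 37.8% and 32.5% of all stem genes, and after scaling 1 rose by genotype. In leaves Sobic.004G340700 rose by day (0.68 ± 0.13) and 0 fell. After scaling 1 rose and 2 fell there, and without the 2 leaves that stood apart 1 rose and 1 fell. The phloem genes summed to 93.3 to 226 TPM in stems and 79.7 to 108 TPM in leaves, and none was at 0 in all samples. Sobic.002G270200 and Sobic.004G340700 also hold an F-box domain. Whether these changes came from the share of such tissues or from expression within stem cells was not tested, nor was their part in the other stem results.

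Across the 29 stems *SbSUT1* and Sobic.004G099300 ran against each other, with a Pearson r of -0.65 over log2(TPM + 1) and -0.56 after the group means were taken out. This did not hold in every group. In *DD* control stems at 3 d, replicate 2 had the highest value of both genes (346 and 231 TPM) and replicate 3 the lowest (282 and 159.6 TPM). Replicate 3 of *dd* control at 10 d had the lowest *SbSUT1* value of all stems and the highest of Sobic.004G099300 (70.8 and 559 TPM). The r without the stems that stood apart was not computed. Sobic.008G193300 and Sobic.004G099300 ran together, with r of 0.55, and 0.78 after the group means were taken out. *SbSUT1* and Sobic.004G353600 had r of 0.63 over all stems and -0.12 within groups. In the 24 leaves the only r over 0.4 in size was -0.66 for *SbSUT1* and Sobic.004G099300, which was -0.08 within groups. Samples share their genotype, treatment and day, and TPM of genes in 1 library share a total, so these values are descriptions.

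Likeness to each member was measured by Pearson r of log2(TPM + 1) over the samples, for described genes that averaged 10 TPM or more. In stems Sobic.003G437800, described as induced by abscisic acid and water stress (r = 0.90), and the cytochrome P450 gene Sobic.003G228900 (r = 0.89) came closest to *SbSUT1*. The Clp protease gene Sobic.004G162400 (r = 0.96) and the StAR-related lipid transfer family gene Sobic.010G013800 (r = 0.93) were closest to Sobic.004G353600. For Sobic.008G193300 they were the cyclic nucleotide-gated channel gene Sobic.001G083800 (r = 0.90) and the kelch domain gene Sobic.001G023000 (r = 0.87). For Sobic.004G099300 they were the purple acid phosphatase gene Sobic.010G205200 (r = 0.91) and the VHS domain gene Sobic.002G376300 (r = 0.89), and these 8 values are over 29 stems and 10803 genes. Over 24 leaves r was 0.90 and 0.89 for Sobic.001G418700 and Sobic.001G241100 with *SbSUT1*. It was 0.86 and 0.82 for Sobic.004G031800 and Sobic.009G033700 with Sobic.004G353600, 0.78 and 0.76 for Sobic.006G140700 and Sobic.003G378400 with Sobic.008G193300, and 0.91 and 0.88 for Sobic.006G193500 and Sobic.003G072500 with Sobic.004G099300. No gene was among the closest of a member in both organs. After the group means were taken out, these r ranged from 0.61 to 0.88 in stems and from 0.56 to 0.89 in leaves. Each named gene was picked as the closest of many, so these values are descriptions.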

How the data were processed

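Messenger RNA libraries of stems and leaves were sequenced by the authors. The submitters' processing notes name FastQC, Trimmomatic and STAR, and DESeq2 for their comparisons, without versions, while the genome build and the step that made TPM are not given in the sources used here. The deposited tables give TPM for each sample, and every listed gene was checked to exceed 3 TPM in 2 or more samples. Columns were matched to samples by title, with 0 columns of other samples. The deposited comparisons hold fold changes and p-values and were not used. Because TPM are no counts, log2(TPM + 1) was fitted with limma 3.58.1 in R 4.3.3 (eBayes with a variance trend), following the terms of the study's linear model, and a fit of 8 group means gave interactions and effects within groups. P-values are two-sided, adjusted by Benjamini and Hochberg's method over all genes of an organ, with a threshold of 0.01, and cover only the spread between labelled replicates. The fit was tested on simulated data. Tables and figures were made in Python 3.11.15.

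Named genes are the members, the other tonoplast transporter, up to 2 genes per list and organ with the largest change past the test, and the 2 genes most like each member in each organ. Lists came from patterns in the deposited gene descriptions, and a calcium pump and spinster genes that the patterns caught were left out after the tables had been seen. The members and lists were chosen with earlier results of these data known. Alternatives were pseudocounts of 0.1 and 3 TPM, a minimum mean of 10 TPM, median-of-ratios scaling, the 8 group means, a replicate block, no variance trend, and leaving out each sample or, in each organ, the 2 samples that stood apart. Those of the organ comparison and of the lists were added after seeing the data. No sequences or coordinates are given, since 0 of the 4 members matched the reference table by identifier.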

Additional observations from a re-analysis of the deposited data

Results flagged for a closer look

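*SbSUT1* in *DD* head removal stems at 3 d had 1 sample far from the others: replicate 2 had 356 TPM, and the other 3 lay between 513 and 522 TPM. Its gap to the nearest sample was 0.946 of the group's range, above Dixon's critical value at 95% for 4 samples. The 5 stem groups of 4 samples were looked at in this way for each of the 4 genes, 20 sets of values from the same samples, and chance alone sets apart about 1 in 20.

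The effect of head removal differed between stems and leaves for 2 genes by the test of the difference itself, at 0.56 (stem minus leaf) for *SbSUT1* and -0.73 for Sobic.004G099300. The effect of day differed for Sobic.004G353600, at -0.78. Whether stem and leaf samples shared plants is not stated, so the tests take them as independent.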

How the results depend on the processing

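Of 636 member effects with 1 sample left out, 620 kept their direction and side of the threshold, as did 181 of 189 under the other alternatives. Median-of-ratios scaling changed the stem treatment effect of *SbSUT1* (0.45, past the threshold), the stem genotype effects of Sobic.004G353600 (-0.25, lost) and Sobic.008G193300 (0.28, gained), the leaf day effect of Sobic.004G099300 (0.49, lost), and the signs of 3 values that did not pass: the stem treatment (0.017) and leaf day (-0.015) effects of Sobic.008G193300 and the stem minus leaf day difference of *SbSUT1* (0.00206). The replicate block lost the stem genotype effect of Sobic.004G353600 (-0.32, adjusted limma p 0.0102) and changed no other call of the 4 genes. Within an organ, 4 of 29 stems and 4 of 24 leaves were most alike a sample of their own number in another group. The median r of deviations from the group means was -0.015 for same-numbered stems and -0.021 for the others, and -0.059 and -0.012 in leaves. A weak pairing, or a plant shared by a stem and a leaf sample, may not show in these values. Leaving out the 2 samples that stood apart lost the Sobic.004G099300 leaf day effect (0.51) and the *SbSUT1* treatment difference between organs (0.44). With each sample left out in turn, values ranged from 0.33 to 0.45 for *SbSUT1* by treatment in stems, from -0.35 to -0.28 and from 0.19 to 0.24 for Sobic.004G353600 and Sobic.008G193300 by genotype in stems, from -0.0651 to 0.00316 for Sobic.004G353600 by day in leaves (0.00177 without another leaf), from -0.068 to 0.000253 for its treatment difference between organs, and from -0.47 to -0.37 for the Sobic.008G193300 day difference between organs. Over all genes, the leaf genotype count of 891 became 553 after scaling, 578 with 8 group means and 431 to 576 without single leaves where it moved most, and the leaf treatment count of 1863 became 836 without both *DD* leaves that stood apart and 1240 without 1 *dd* leaf. Scaling moved the share of higher calls by treatment, genotype and day to 50.8, 54.1 and 51.2% in stems, against 38.0, 29.0 and 27.2% unscaled, and to 48.8, 66.5 and 53.8% in leaves, against 38.0, 86.4 and 82.8% unscaled. In leaves Sobic.004G353600 averaged less than the 10 TPM minimum, so it was not fitted under that alternative. The causes were not tested. Depth is unknown, and 3 or 4 samples a group limit the precision.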
